A study of Mus musculus with 3 samples.

Results

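The 37 genes described here encode the enzymes of glycolysis, the transporters at its 2 ends and some of its regulators. Others encode enzymes of the pyruvate dehydrogenase step and of the tricarboxylic acid (TCA) cycle, grouped with the cytosolic forms Idh1 and Mdh1. The last 3, Acod1, Acly and G6pdx, encode enzymes that draw on these pathways. All 37 genes were taken by gene symbol from the 55536 annotated genes of the deposited gene tables, and each was found. RNA had been prepared from the nuclear fraction of bone marrow-derived macrophages of C57BL/6J mice, called nucleoplasmic in one label and nuclear in another, after 15 min with 100 ng/ml Lipid A, the part of lipopolysaccharide that Tlr4 senses. These are primary cells grown from marrow progenitors in culture. Ribosomal RNA was depleted and total RNA was sequenced in 3 libraries, which are the replicates of 1 group. The labels number the libraries as biological replicates, with separate biosample entries and 1 shared donor entry. Whether they came from separate animals cannot be told, so the spread between them may hold no variation between animals. All cells had received Lipid A and no untreated or later sample was analysed here, so the values are levels at this time and not responses.

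Glycolysis splits glucose into pyruvate in the cytosol. Hexokinases trap glucose as its phosphate, phosphofructokinase commits it to the pathway, and pyruvate kinase closes it, after which lactate dehydrogenase can reduce pyruvate to lactate. The pyruvate dehydrogenase complex instead passes pyruvate to the TCA cycle of the mitochondrion, where it is oxidised. Macrophages that sense lipopolysaccharide are known for a shift towards glycolysis and for turning the TCA intermediate cis-aconitate into itaconate through the enzyme Acod1.

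Annotated genes held between 17345644 and 20947006 expected counts per library, that is, counts apportioned to genes by a statistical model, and the 37 genes together held 0.259%, 0.189% and 0.201% of them in replicates 1, 2 and 3. The starting amount was 500 ng for replicate 2, against 1 µg for each of replicates 1 and 3. All 8 macrophage markers were measured, with summed levels of 2590 to 3500 TPM (transcript abundance corrected for length and depth) per library. Marker lists of other cell types summed to at most 6.32 TPM, the highest of them being the erythroid list. The T cell gene Cd3e, the neutrophil gene Ly6g and the fibroblast gene Pdgfra were at 0 counts in every library. Some genes of these lists did have counts. In replicates 1 to 3 the endothelial gene Kdr had 515, 465 and 802, and the dendritic cell gene Zbtb46 had 105, 147 and 85. The mast cell gene Kit had 38, 63 and 109, and the erythroid gene Alas2 had 43, 51 and 29. Replicate 3 held 14200 CPM (counts scaled to library size) of the mitochondrial ribosomal RNA mt-Rnr1, against 536 and 336 CPM in replicates 1 and 2. Replicate 1 held more of the replication genes Mcm3, Mcm6, Top2a and Pcna than the others, for example 89.6 CPM of Mcm6 against 17.9 and 22.1 CPM. In bulk RNA of this kind, fewer cells with a transcript and less of it per cell cannot be told apart.

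In all 37 genes the expected count averaged 10 or more over the libraries. Their mean level had a median of 16.1 TPM, against 6.88 TPM over the 11960 protein-coding genes measured at that count. Of the 37, 26 lay above the median protein-coding gene in every library and 7 lay below it in every library. A group of 5 glycolytic genes, Pkm, Hk3, Gapdh, Aldoa and Ldha, stood at or above percentile 90 in each library. The 7 low genes were Pdk1, Fh1, Suclg1, Acod1, Slc2a1, Pfkm and Ldhb. The order of the mean levels ran in small steps: of 36 pairs of neighbours in it, only Pfkm and Ldhb at the bottom had ranges over the libraries that did not overlap.

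**Figure D1:**
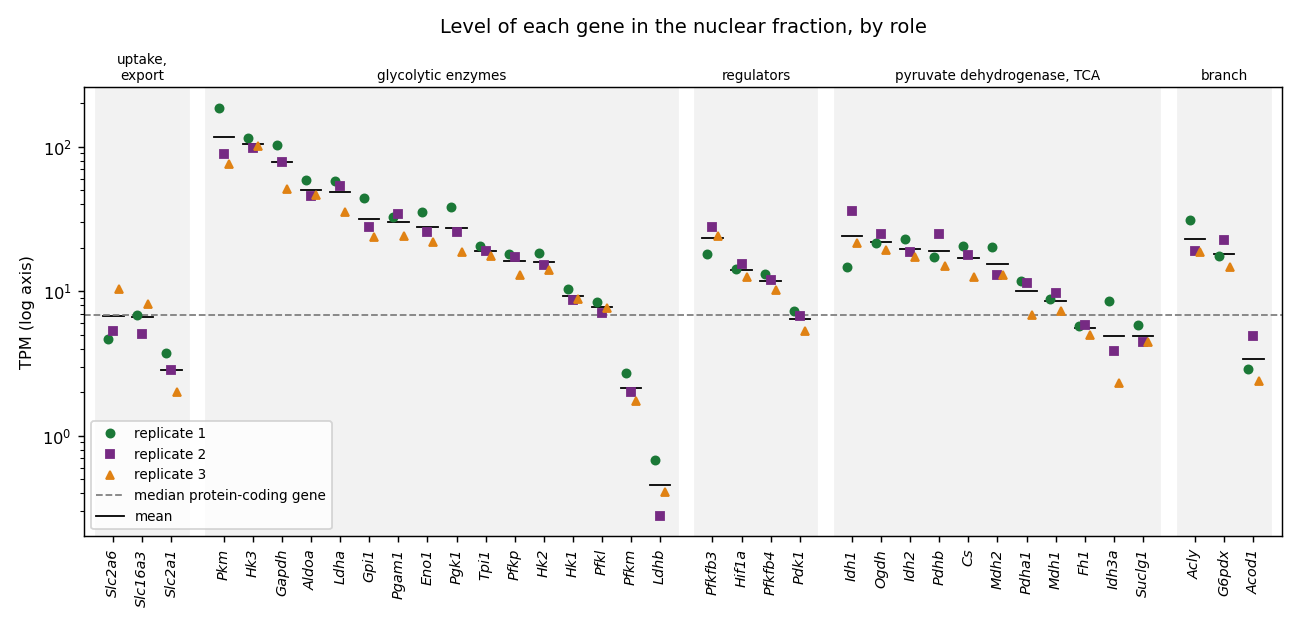
TPM of each gene (log axis) in replicates 1, 2 and 3, grouped by role and ordered by mean (black bar), with the median protein-coding gene of 6.88 TPM as a dashed line. In the gene table Pkm and Hk3 averaged above 100 TPM, and Ldhb lay under 1 TPM in all 3 libraries.

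Glucose enters through facilitative transporters and lactate leaves through monocarboxylate transporters, and the 3 members with these roles had a median of 6.68 TPM. Slc2a1, which encodes the widely used glucose transporter Glut1, had 3.73, 2.83 and 2.01 TPM in replicates 1 to 3, on counts of 287, 152 and 199. Slc2a6, a lysosome-associated hexose transporter of macrophages, had 4.65, 5.27 and 10.3 TPM. Replicate 3 was the high one for Slc2a6, and its range did not overlap that of Slc2a1. Slc16a3, the lactate exporter Mct4, had 6.82, 5.03 and 8.18 TPM, again with the highest value in replicate 3. Among related transporters Slc16a7 (Mct2) was the most abundant monocarboxylate carrier by TPM, with 64.7% ± 10.6 of the summed TPM of Slc16a1, Slc16a3 and Slc16a7, against 26.9% ± 7.30 for Slc16a3 (SD, n = 3).

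The 16 glycolytic enzyme genes covered the widest range, with a median of 27.6 TPM and mean levels between 0.457 and 117 TPM. Hexokinase, the first step, was dominated by Hk3, the form typical of myeloid cells. Hk3 (ENSMUSG00000025877.14, GRCm38 chromosome 13, 55005985 to 55021385, minus strand) had 115, 97.5 and 101 TPM. Hk2, the inducible form, had 18.3, 15.2 and 14.0 TPM, and Hk1, the housekeeping form, had 10.3, 8.62 and 8.76 TPM. The 3 ranges did not overlap, and Hk3 made up 80.7% ± 0.883 of hexokinase TPM (SD, n = 3). Hkdc1 had 2 counts in replicate 2 only.

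Gpi1, which isomerises glucose 6-phosphate, had 44.1, 27.7 and 23.6 TPM. At the commitment step the highest level was that of Pfkp, the platelet form of phosphofructokinase, with 18.1, 17.3 and 12.9 TPM, ahead of the liver form Pfkl with 8.35, 7.11 and 7.69 TPM and the muscle form Pfkm with 2.71, 2.00 and 1.75 TPM. Their ranges did not overlap in the gene table, although most counts of Pfkp lay in a transcript with a retained intron, as given with the transcript types. Aldoa, the aldolase of most tissues, had 59.0, 45.8 and 46.0 TPM and held 96.7% ± 1.47 of aldolase TPM. A second identifier with the symbol Aldoa held only 8, 0 and 4 counts and was left out. Tpi1, which interconverts the triose phosphates, had a narrow range of 17.4 to 20.4 TPM.

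After the split into trioses Gapdh, the dehydrogenase that makes NADH, had 103, 78.5 and 51.3 TPM. Pgk1, the first ATP-yielding step, had 38.0, 25.8 and 18.6 TPM. Both were highest in replicate 1 and lowest in replicate 3 by TPM, and 66.9% of all genes were lowest in replicate 3 by that measure. Pgam1, phosphoglycerate mutase, had 32.5, 34.1 and 24.0 TPM. Eno1, the main enolase, had 35.4, 25.5 and 21.8 TPM and 65.9% ± 7.66 of enolase TPM, with 26.1% ± 5.48 in Eno2, the form named after neurons (SD, n = 3). Glycolytic genes have many processed copies in the genome. Of 21 entries found by symbol, among them the second Aldoa identifier, only Eno1b reached a mean of 10 counts in the gene table. In the second deposited transcript table, whose columns are those of another program, 3 of these entries reached that mean: Eno1b, Aldoart1 and Pgk1-rs7. Copies under other symbols were not examined, so the reads taken by all copies are not known. The deposited posterior SD of the count exceeded 1% of the count in Eno1 and Pgk1 alone.

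Pkm, pyruvate kinase (ENSMUSG00000032294.17, GRCm38 chromosome 9, 59656368 to 59679375, plus strand), was the highest gene by mean, with 186, 89.3 and 76.1 TPM. Replicate 1 was more than double either of the others, so the mean of 117 TPM had an SD of 59.8, and the Pkm range overlapped that of Hk3. Ldha, the lactate dehydrogenase subunit that favours lactate, had 58.0, 53.2 and 35.1 TPM. Ldhb, the heart-type subunit, had 0.680, 0.280 and 0.410 TPM on 18, 3 and 13 counts. Ldha therefore held 99.1% ± 0.366 of lactate dehydrogenase TPM (SD, n = 3), and the testis form Ldhc had no count.

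Pkm makes 2 enzymes by using 1 of 2 mutually exclusive exons: the M1 exon, typical of muscle and brain, or the M2 exon, typical of dividing and immune cells. The exons are shown because the choice between them separates the transcripts counted here. They lie in the coding part of the gene, 372 bases apart. Both are exon 9 of their transcript and 167 bases long. The M2 exon is at chr9:59675568-59675734 (transcript Pkm-201) and the M1 exon at chr9:59675029-59675195 (transcript Pkm-202), plus strand of GRCm38, with sequences from GENCODE M21. Capitals mark the 64 positions at which they differ, and the other 103 (61.7%) are identical.
Pkm M2 exon: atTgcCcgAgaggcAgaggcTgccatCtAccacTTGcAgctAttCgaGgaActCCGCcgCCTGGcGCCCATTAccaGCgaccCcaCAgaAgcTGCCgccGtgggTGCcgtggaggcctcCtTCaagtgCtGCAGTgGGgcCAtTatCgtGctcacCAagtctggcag
Pkm M1 exon: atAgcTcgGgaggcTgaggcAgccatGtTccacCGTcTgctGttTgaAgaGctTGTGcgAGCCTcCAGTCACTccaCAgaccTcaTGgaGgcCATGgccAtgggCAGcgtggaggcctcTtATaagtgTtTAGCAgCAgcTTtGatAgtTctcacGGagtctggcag
The M2 transcript held 6083, 2819 and 3448 expected counts in replicates 1 to 3, and the M1 transcript held 688, 192 and 413. M2 was thus 89.8% of both in replicate 1 (95% Wilson interval 89.1 to 90.5), 93.6% in replicate 2 (92.7 to 94.4) and 89.3% in replicate 3 (88.3 to 90.2). These intervals treat every expected count as an observed read, although the model apportions the reads that both transcripts share. They are thus too narrow even for counting error. The interval of replicate 2 lies above the others, but for this reason a difference cannot be read from it. M2 prevailed in all 3 libraries, at 90.9% ± 2.36 (SD, n = 3), and at 91.1% ± 2.16 in the second transcript table.

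Of the 4 regulators, Pfkfb3, the kinase that makes the phosphofructokinase activator fructose 2,6-bisphosphate, was the highest, with 18.1, 27.9 and 24.2 TPM. Its relative Pfkfb4 had 13.1, 11.97 and 10.1 TPM, below every Pfkfb3 value. Hif1a, the oxygen-regulated factor that drives many glycolytic genes, had 14.3, 15.5 and 12.5 TPM on about equal counts of 1109, 1091 and 1147. Pdk1, the kinase that switches pyruvate dehydrogenase off, had 7.27, 6.74 and 5.30 TPM and was the main member of its family, at 69.8% ± 8.08 of the TPM of Pdk1 to Pdk4 (SD, n = 3). Pdk4 had a single count in replicate 1 and none elsewhere.

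The 11 genes grouped under the pyruvate dehydrogenase step and the TCA cycle had a median of 15.3 TPM, with mean levels between 4.89 and 24.1 TPM. The group includes Idh1, its highest, and Mdh1, which encode cytosolic enzymes and not steps of the mitochondrial cycle. Pdha1 and Pdhb encode the 2 subunits of the first enzyme of the pyruvate dehydrogenase complex. Pdha1 had 11.9, 11.5 and 6.80 TPM, and Pdhb had 17.1, 24.8 and 14.9 TPM, so that Pdhb was higher in each library. Citrate synthase, Cs, had 20.7, 17.8 and 12.6 TPM, with replicate 3 lowest, as for most genes of any kind by TPM. The isocitrate dehydrogenases differed in steadiness more than in mean level. Idh1, the cytosolic NADP-dependent form, had 14.8, 36.1 and 21.4 TPM. Idh2, its mitochondrial counterpart, had 22.9, 18.8 and 17.4 TPM, so Idh1 was below Idh2 in replicate 1 and above it in the others. Idh3a, the catalytic subunit of the NAD-dependent cycle enzyme, had 8.53, 3.88 and 2.31 TPM, a range within 1 group wider than 2-fold.

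Ogdh, of the 2-oxoglutarate dehydrogenase complex, had 21.5, 24.7 and 19.3 TPM and lay at or above percentile 81.4 in every library. Suclg1, a subunit of succinyl-CoA ligase, had 5.80, 4.44 and 4.42 TPM. Fh1, fumarase, had 5.71, 5.88 and 4.97 TPM. Both were below the median protein-coding gene in all 3 libraries. Malate dehydrogenase had 8.76, 9.77 and 7.28 TPM for the cytosolic Mdh1 and 20.2, 12.9 and 12.9 TPM for the mitochondrial Mdh2, and these ranges did not overlap.

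Acod1 (also called Irg1; ENSMUSG00000022126.6, GRCm38 chromosome 14, 103046977 to 103056573, plus strand), which makes itaconate and is known to be induced by lipopolysaccharide, had 2.88, 4.92 and 2.38 TPM on 175, 246 and 187 counts. Its percentiles among protein-coding genes were 27.1, 39.2 and 30.4. Acod1 was thus detected in every library and low in every library 15 min after Lipid A. Acly, which turns exported citrate into acetyl-CoA, had 31.3, 19.1 and 18.7 TPM. G6pdx, the entry enzyme of the pentose phosphate pathway, had 17.5, 22.4 and 14.8 TPM. Both lay above percentile 75 in every library.

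Levels of different genes were compared within each library, as differences of log2(TPM + 0.1), because library scaling cancels there. The pseudocount makes such folds understate the difference of low genes. The median glycolytic enzyme had 34.0, 25.6 and 20.2 TPM in replicates 1 to 3, against 14.8, 12.8 and 12.6 TPM for the median enzyme of the pyruvate dehydrogenase and TCA group. The difference was 1.19, 0.99 and 0.67 on the log2 scale, a mean of 0.95 ± 0.26 (SD, n = 3) or 1.93-fold, and had the same sign in all 3 libraries. The two-sided exact sign-flip permutation p was 0.25, which is the smallest that 3 libraries allow. No difference of this kind could pass a 0.05 threshold in this design. The difference describes the 16 and 11 genes chosen here. Among further genes of these pathways the order was the other way round. The median was 4.43 TPM for 19 of glycolysis and its entry and exit points. It was 9.22 TPM for 27 of the pyruvate dehydrogenase complex and the TCA cycle. Those lists also hold transporters and regulators.

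In all, 12 pairs of isozymes, transporters or subunits were compared in the same way, and 11 had the same sign in all 3 libraries, each with an exact permutation p of 0.25 and 0.273 after Benjamini-Hochberg adjustment over the 12 pairs. Hk3 exceeded Hk1 by 3.49 ± 0.03 on the log2 scale, 11.2-fold, and Hk3 exceeded Hk2 by 2.72 ± 0.11. Hk2 exceeded Hk1 by 0.77 ± 0.08. The 3 hexokinase differences were the most constant over libraries. Ldha exceeded Ldhb by 6.49 ± 0.56, 89.7-fold, the widest gap of the 12. For phosphofructokinase the difference was 2.85 ± 0.18 for Pfkp minus Pfkm, 1.81 ± 0.24 for Pfkl minus Pfkm and -1.04 ± 0.27 for Pfkl minus Pfkp. It was -0.97 ± 0.44 for Pfkfb4 minus Pfkfb3, -0.80 ± 0.40 for Mdh1 minus Mdh2 and -0.92 ± 0.34 for Pdha1 minus Pdhb. Slc2a6 minus Slc2a1 was 0.31, 0.87 and 2.30 in replicates 1 to 3, a mean of 1.16 ± 1.02. Idh1 minus Idh2 changed sign between libraries, at -0.63, 0.94 and 0.30, with an exact permutation p of 0.75.

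**Figure D2:**
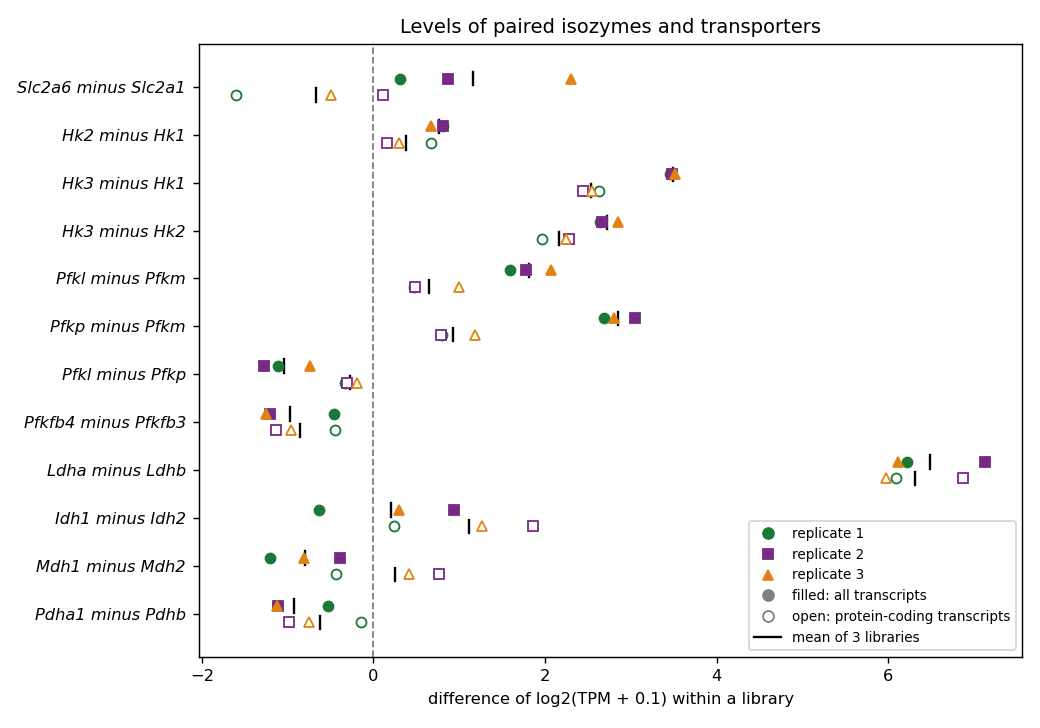
Difference of log2(TPM + 0.1) between 2 genes within each library, from all transcripts of a gene (filled) and from its protein-coding transcripts alone (open), with the mean as a black bar. The Pfkp minus Pfkm difference averaged 2.85 with all transcripts and 0.93 with protein-coding ones, and the means of Slc2a6 minus Slc2a1 and of Mdh1 minus Mdh2 lay on the other side of 0 with protein-coding ones, all in the first table.

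Part of these levels was assigned to annotated transcripts that do not encode the full enzyme. In the annotation a gene can have transcripts typed as protein-coding, as retaining an intron, as a processed transcript without an open reading frame, or as targets of nonsense-mediated decay. The model divides reads among them, so the shares are estimates. Nuclear RNA can also hold incompletely spliced transcripts. Whether reads of these were assigned to the types without a full reading frame was not tested. Of the 37 genes, 16 had over 90% of their expected counts in protein-coding transcripts in every library, among them Ldha, Pgam1, Pgk1, Hk1, Hk2, Hif1a, Ogdh and Acod1. Pfkp, Slc2a6 and Idh3a had under 50% there in every library. By the second table the numbers were 10 genes over 90% and 7 under 50%, namely those 3 and also Gpi1, Mdh2, Pfkfb4 and Suclg1.

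Pfkp (GRCm38 chromosome 13, 6579768 to 6648777, minus strand) had 77.3%, 81.9% and 70.6% of its expected counts in retained-intron transcripts. The transcript Pfkp-212 alone held 1051, 912 and 735 counts. In protein-coding transcripts only, Pfkp had 4.78, 3.54 and 4.10 TPM and Pfkm had 2.70, 2.00 and 1.75 TPM. The Pfkp minus Pfkm difference then averaged 0.93, or 1.90-fold, instead of 7.22-fold, with the same sign in every library. Pfkl had 3.79, 2.84 and 3.59 TPM in protein-coding transcripts, so that Pfkl minus Pfkm averaged 0.65 and Pfkl minus Pfkp -0.27. With protein-coding transcripts of the second table these 3 differences averaged 1.12 for Pfkp minus Pfkm, -0.07 for Pfkl minus Pfkm, with different signs in different libraries, and -1.19 for Pfkl minus Pfkp.

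Slc2a6 (GRCm38 chromosome 2, 27021363 to 27027998, minus strand) had 78.9%, 72.8% and 90.6% of its counts in the type processed transcript, and the largest such transcript held 158, 124 and 475 counts. Its protein-coding transcripts held 1.16, 1.67 and 1.39 TPM, against 3.73, 1.54 and 2.01 TPM for Slc2a1. On this measure Slc2a6 minus Slc2a1 averaged -0.67 and changed sign between libraries. The second table put less of Slc2a6 in processed transcripts, 56.5%, 52.6% and 57.3%, and with its protein-coding transcripts the difference was -0.53, 1.43 and 2.03, a mean of 0.98. Which transporter was higher thus depended on the library, on the transcripts counted and on the table. Mdh2 had 24.4% of its counts in transcripts of the nonsense-mediated decay type and 27.2% in retained-intron transcripts. With protein-coding transcripts only, Mdh1 minus Mdh2 averaged 0.25, with an exact permutation p of 0.75 and different signs in different libraries. In the second table it averaged 0.38, again with different signs.

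Hk3 had no annotated retained-intron transcript, but 36.6% of its counts lay in a transcript of the nonsense-mediated decay type, with 2190, 1777 and 2491 counts. In the second table the same transcript held 15.7%, 34.3% and 15.3%, a mean of 21.8%. In the first table the protein-coding transcripts of Hk3 averaged 48.4 ± 6.62 TPM, against 8.20 ± 0.623 TPM for Hk1 and 10.9 ± 2.90 TPM for Hk2 (SD, n = 3). The Hk3 minus Hk1 difference was 2.54 on this measure, 5.82-fold, and Hk2 minus Hk1 was 0.38; in the second table they were 2.73 and 0.57. Idh1 minus Idh2, which changed sign with all transcripts, was 0.24, 1.86 and 1.27 in replicates 1 to 3 with protein-coding ones. The difference between the glycolytic enzymes and the pyruvate dehydrogenase and TCA group was 1.20 ± 0.11 (SD, n = 3) with protein-coding transcripts. Retained-intron transcripts averaged 61.4% ± 8.24 of the counts of Idh3a, 48.2% ± 9.61 of Gpi1 and 41.6% ± 4.78 of Pdhb. Together with Pfkp these were the 4 genes at or above 40% in the first table. Suclg1 joined them in the second table, with retained-intron shares of 52.4%, 70.5% and 48.0% there and 27.0%, 56.8% and 22.2% in the first table. Another 8 genes had such a transcript and under 5% of their counts in it, and 11 had none annotated.

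Over the 26 genes with a retained-intron transcript the median share was 15.1%, 11.3% and 14.0% in replicates 1 to 3, against 19.2%, 19.5% and 17.7% over the 7231 measured genes with such a transcript. The mean of these medians was 13.5% ± 1.96 and 18.8% ± 0.962 (SD, n = 3). Within the 26 the median was 16.2% ± 1.10 for 12 glycolytic enzymes, below that of all genes in each library, and 24.1% ± 2.45 for 9 genes of the pyruvate dehydrogenase and TCA group, above it in each library. In the second transcript table the median of the 26 genes was 16.6%, against 23.5% over all genes, with 18.4% for the glycolytic enzymes and 28.8% for the TCA group. As a share of TPM in the first table it was 21.5%, against 31.5% over all genes, with 19.0% for the glycolytic enzymes and 29.4% for the TCA group. The TCA group thus lay above all genes by both count measures and, by the mean over libraries, below them by TPM.

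**Figure D3:**
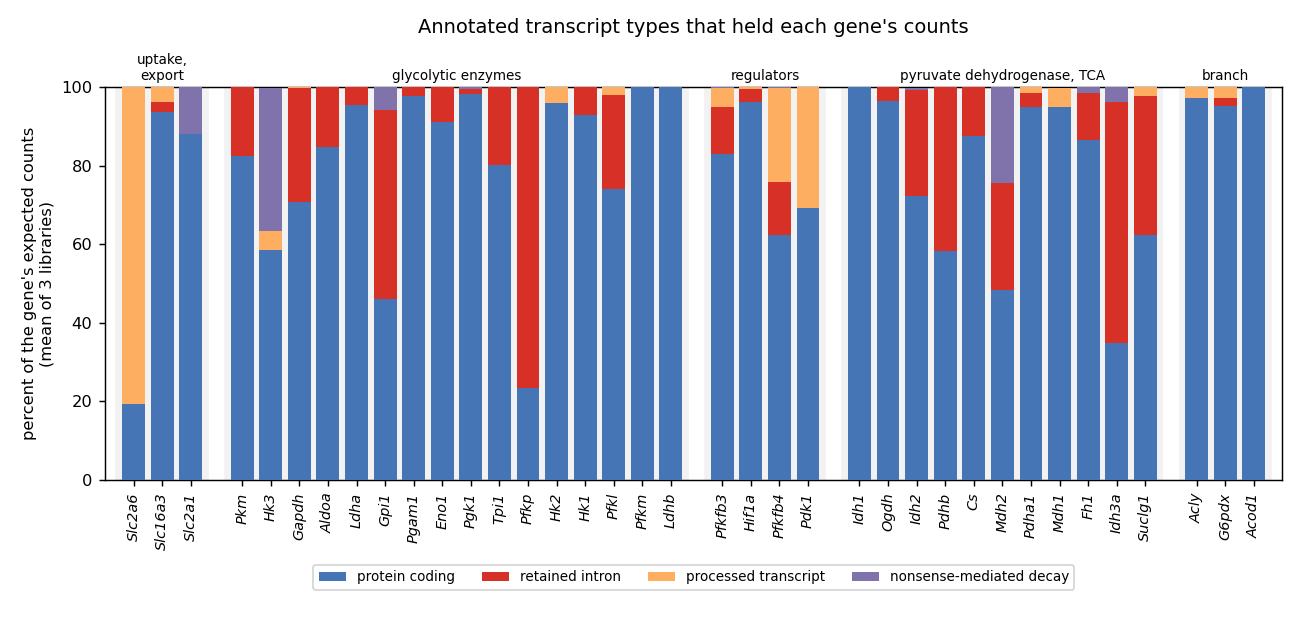
Percent of each gene's expected counts, as the mean of 3 libraries, in transcripts annotated as protein coding, retained intron, processed transcript or nonsense-mediated decay. Counts of Pfkp were mostly assigned to retained-intron transcripts (76.6%) and those of Slc2a6 mostly to processed transcripts (80.8%), while Acod1 has a single, protein-coding transcript.

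Between libraries, genes were compared as CPM scaled by TMM factors, computed from rounded expected counts over the 15876 genes whose count averaged 10 or more. The median SD of log2 CPM was 0.275 over the 37 genes, against 0.32 over all 15876 and 0.267 over the 10277 genes whose count averaged 100 or more. Pgam1 was the steadiest of the 37, with 60.6, 58.3 and 60.1 CPM. The highest library was at least 2-fold above the lowest in 5 of the 37, Pkm, Idh1, Idh3a, Slc2a6 and Ldhb, or 13.5% of them, against 24.3% of all genes.

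A gene was said to stand apart in a library where it was at least 2-fold above, or at least 2-fold below, both others. Idh3a stood apart above in replicate 1, with 20.2 CPM against 9.41 and 7.42 CPM, 1 of 37 where 4.86% of all genes did. No member stood apart below in replicate 1, where 3.22% of all genes did. In replicate 2 none stood apart above (0.857% of all genes), and Ldhb stood apart below (2.22% of all genes) with 0.276 CPM against 1.02 and 0.780 CPM, a gene with only 3 counts there. In replicate 3 Slc2a6 stood apart above (1.55% of all genes), with 39.4 CPM against 13.6 and 13.5 CPM, and none stood apart below (1.39% of all genes). These counts of 0 or 1 among 37 were near what the shares of all genes give, and Ldhb was not called from the counts of the second table.

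At a 1.5-fold threshold 5 of the 37 stood apart above in replicate 1: Pkm, Gapdh, Gpi1, Pgk1 and Idh3a, 13.5% against 10.4% of all genes. Pkm had 452 CPM there against 207 and 248 CPM, and Gpi1 had 107 CPM against 60.1 and 63.9 CPM. Idh1 stood apart below in replicate 1 (8.46% of all genes), with 38.9 CPM against 88.5 and 75.3 CPM. In replicate 2 none stood apart above (3.99% of all genes) and Hk2 and Ldhb stood apart below (6.25% of all genes). Hk2 had 48.7 CPM in replicate 2 against 84.4 and 77.2 CPM. In replicate 3 only Slc2a6 stood apart above (4.89% of all genes) and none below (5.74% of all genes).

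Most glycolytic enzymes were highest in replicate 1, in numbers that varied with the measure, and the library in which they were lowest changed with it. Of the 16, 11 had their highest CPM in replicate 1 (68.8%, against 36.6% of all genes) and 14 their lowest in replicate 2 (87.5%, against 32.4% of all genes). By TPM 15 were highest in replicate 1 (93.8%, against 39.6% of all genes), 5 were lowest in replicate 2 (31.2%, against 1913 of all 15876 genes) and 11 in replicate 3 (68.8%, against 66.9% of all genes). TMM factors were not applied to TPM, and most genes of any kind had their lowest TPM in replicate 3. With DESeq2 size factors 14 were lowest in replicate 2, with total counts 10, and with scaled counts of the second table all 16. In TMM-scaled CPM their median deviation of 1 library from the others was 0.36 on the log2 scale in replicate 1, -0.45 in replicate 2 and 0.04 in replicate 3. Over all genes these medians were 0.02, 0.00 and 0.00. The 11 genes of the pyruvate dehydrogenase and TCA group deviated by 0.18, -0.18 and 0.05. The replication genes given above and Myc, a driver of growth and glycolysis, were also high in replicate 1, and replicate 2 was the library made from 500 ng. Myc had 830, 120 and 173 counts. The part of these in the deviation of the glycolytic enzymes was not tested.

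**Figure D4:**
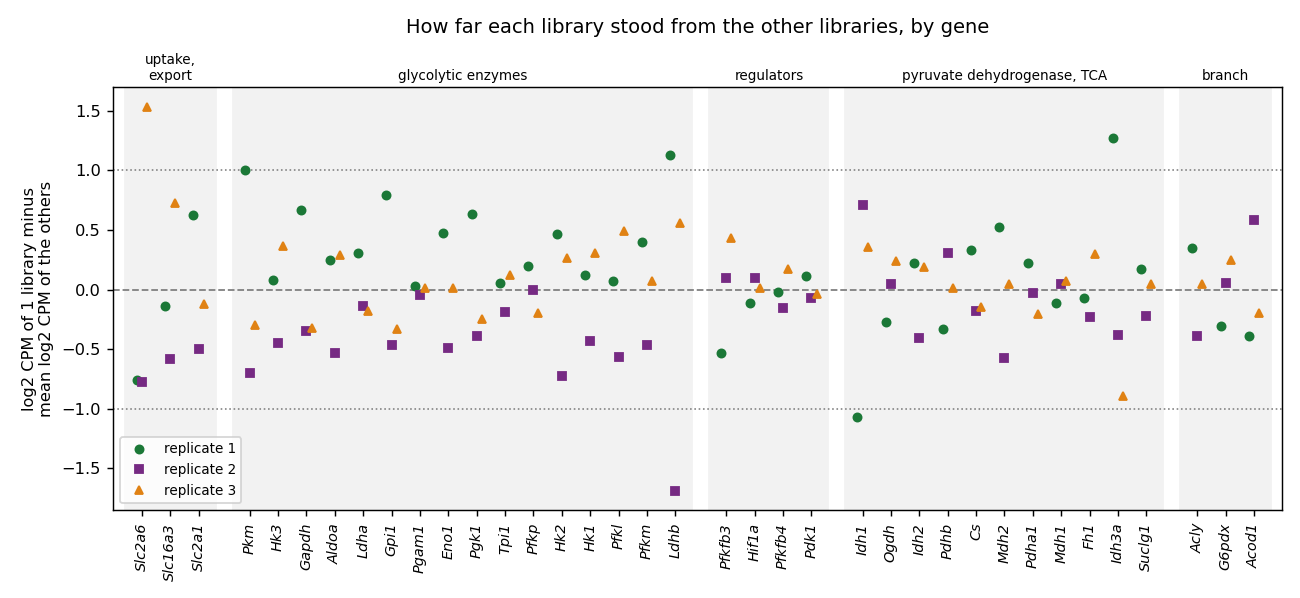
Log2 CPM of each library minus the mean log2 CPM of both others, per gene and grouped by role, with dotted lines at 2-fold. Replicate 2 lies below 0 for the glycolytic enzymes as a group (median -0.45), and Slc2a6 in replicate 3 and Idh3a and Ldhb in replicate 1 lie above the upper line, with Pkm in replicate 1 at it.

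The other genes of these pathways were described from lists, with the highest and the lowest of each named. Of 19 further genes of glycolysis and its entry and exit points, 17 averaged 10 counts or more, with a median level of 4.43 TPM. The highest were Bsg, the chaperone of lactate transporters, with 37.2, 47.0 and 33.5 TPM, Mpc1, of the mitochondrial pyruvate carrier, with 22.0, 46.9 and 28.4 TPM, and Slc16a7 with 12.03, 20.6 and 16.6 TPM. The gluconeogenic Fbp1 had no count. Of 13 isozymes of liver, muscle or testis, 2 averaged 10 counts or more and 6 had none in any library. The highest of those 13 were Eno3 with 2.47 ± 0.729 TPM and Pgam2 with 0.977 ± 0.344 TPM (SD, n = 3).

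Of 27 further genes of the pyruvate dehydrogenase complex and the TCA cycle, 26 averaged 10 counts or more, with a median of 9.22 TPM. Dlst, the second enzyme of the 2-oxoglutarate dehydrogenase complex, had 51.7, 47.6 and 36.8 TPM. Sdha, the flavoprotein subunit of succinate dehydrogenase, had 34.8, 47.2 and 38.2 TPM, and Idh3b, a partner subunit of Idh3a, had 29.2, 37.1 and 23.5 TPM. Each was higher than every one of the 11 TCA group members by mean. Idh3b exceeded Idh3a in all 3 libraries. Pdk4 was the lowest of the 27.

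All 6 further genes of the pentose phosphate pathway were measured, with a median of 17.0 TPM. The highest was Pgd, its second dehydrogenase, with 70.5, 52.2 and 44.6 TPM, followed by Tkt with 38.9, 20.7 and 19.3 TPM and Taldo1 with 26.7, 16.7 and 19.2 TPM. Rpia was lowest, at 2.35 ± 0.179 TPM (SD, n = 3). Of 12 genes of oxygen sensing and glycolytic transcription control, 9 were measured. Arnt, the partner of Hif1a, had 23.3, 32.4 and 17.2 TPM, above Hif1a in every library. Mlxip, a glucose-responsive factor, averaged 17.8 ± 6.20 TPM and the prolyl hydroxylase gene Egln2 10.2 ± 1.01 TPM, while the liver-type factor Mlxipl was lowest, at 0.0133 ± 0.0153 TPM (SD, n = 3). 

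Of 8 genes that handle itaconate or belong to the electrophile response it can evoke, 7 were measured. Nfe2l2, the Nrf2 factor at the head of that response, had 87.7, 113 and 115 TPM, and its target Hmox1 had 53.9, 29.3 and 31.7 TPM. Keap1, the inhibitor of Nrf2, averaged 9.75 ± 0.592 TPM. The lowest was Nqo1, another Nrf2 target, with 0.307 ± 0.206 TPM (SD, n = 3). Nfe2l2 was thus more than 10 times as high as Acod1 in every library.

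Promoter sequence was a feature that the choice of genes had not used. RefSeq windows of GRCm38.p6, from 250 bases before to 50 after a gene's start, were at hand for 36 of the 37 genes (not Idh3a), with 54 windows. The letters ACGTG, the core of the element that Hif1a binds, were searched on both strands. They were found in 20 of 36 genes (55.6%), against 29.4% of 9390 measured protein-coding genes and 21.8% of all 27025 genes with windows. Genes with several windows have more room for a match, but by window the figures were 51.9% of 54, against 25.4% of 11961 windows of measured protein-coding genes. Windows of the same gene are not independent, and Ogdh gave 6 and Pfkm 4 of the 54. The match was present in 10 of 16 glycolytic enzymes, 2 of 4 regulators, 3 of 10 genes of the pyruvate dehydrogenase and TCA group, 2 of 3 transporters and 3 of 3 branch genes. GC content was 60.1% in the members' windows and 60.4% in those of measured protein-coding genes.

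CACGTG, the E-box that contains ACGTG on both strands, was in 13.9% of the 36 genes, against 11.9% of measured protein-coding genes. TATAAA was in 5.6%, namely Slc2a1 and Acod1, against 8.6%. The kappaB consensus was in 2.8%, namely Ogdh, against 6.0%. A match is a description of these letters in this window and not a binding site.

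The 250 bases before the start of 4 genes are shown, 5′ to 3′ on the gene's strand, to show the matches in 3 genes of higher level and in the low Acod1, chosen with their levels known. Capitals mark ACGTG or its reverse complement and, in Acod1, also TATAAA. The windows are at chr7:46845554-46845803 (plus strand, Ldha, the first of its 2 windows), chrX:106186850-106187099 (plus, Pgk1), chr13:55021386-55021635 (minus, Hk3) and chr14:103046762-103047011 (plus, Acod1), all in GRCm38.p6 and from RefSeq.
Ldha: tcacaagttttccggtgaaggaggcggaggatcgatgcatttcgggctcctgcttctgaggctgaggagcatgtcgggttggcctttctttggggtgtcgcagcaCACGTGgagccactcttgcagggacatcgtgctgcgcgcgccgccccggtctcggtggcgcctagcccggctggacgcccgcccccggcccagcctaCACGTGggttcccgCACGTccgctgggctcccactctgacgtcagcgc
Pgk1: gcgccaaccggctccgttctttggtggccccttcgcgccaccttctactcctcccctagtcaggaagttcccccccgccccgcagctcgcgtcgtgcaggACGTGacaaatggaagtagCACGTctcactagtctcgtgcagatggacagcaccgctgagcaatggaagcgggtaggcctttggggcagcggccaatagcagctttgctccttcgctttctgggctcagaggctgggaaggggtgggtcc
Hk3: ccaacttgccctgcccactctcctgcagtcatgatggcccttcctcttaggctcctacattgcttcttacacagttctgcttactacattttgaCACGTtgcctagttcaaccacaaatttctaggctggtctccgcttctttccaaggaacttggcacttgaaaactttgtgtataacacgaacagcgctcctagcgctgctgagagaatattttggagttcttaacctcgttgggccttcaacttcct
Acod1: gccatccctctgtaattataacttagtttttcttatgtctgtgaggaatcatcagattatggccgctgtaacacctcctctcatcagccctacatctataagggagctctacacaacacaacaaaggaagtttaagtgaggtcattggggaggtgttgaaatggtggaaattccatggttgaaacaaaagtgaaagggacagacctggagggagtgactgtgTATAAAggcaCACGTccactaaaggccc
Ldha held 5 matches to ACGTG over both strands, of which 4 come from 2 CACGTG that begin 145 and 48 bases before the start. The fifth begins 34 bases before it. Pgk1 held 2 matches, beginning 150 and 131 bases before the start, and Hk3 held 1 at 156 bases. In Acod1 the TATAAA began 28 bases before the RefSeq start, followed by an ACGTG match at 18 bases. The Acod1 gene as counted here begins earlier, at 103046977, so these matches lie inside it. The Ldha window shown likewise lies inside its gene as counted, which begins at 46841475. Genes with such matches thus included both the abundant Ldha and the low Acod1.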

How the data were processed

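Analysed were 3 libraries of rRNA-depleted total RNA from the nuclear fraction (1 group, replicates 1 to 3). Members and lists were chosen with earlier results of these data known. Per the file headers, the authors deposited expected counts and TPM per gene and transcript in columns that RSEM writes, and a second transcript table with estimated counts and TPM in columns that kallisto writes. The posterior SD of a count, also deposited by the authors, was used as a score of uncertainty. Notes deposited with each library name mm10 and GENCODE M21, with program versions being not given in the sources used here. Rows that name no annotated gene held 1.24%, 0.372% and 0.0640% of counts and were left out.

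Expected counts were rounded, genes averaging 10 counts or more kept, and log2 CPM computed with edgeR 4.0.16 (TMM factors 1.07, 1.02 and 0.921, prior count 2; R 4.3.3); DESeq2 1.42.0 gave alternative size factors. The call rule was tested on simulated data. No gene was tested between groups, since there was 1 group. Annotated genes held 18516063, 17345644 and 20947006 counts. Intervals treat expected counts as observed reads and cover counting error at most. All 37 members and, per list, the 3 highest genes and the lowest are named, except for items that are not reported here. Symbols with several identifiers were taken at the highest mean count.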

Additional observations from a re-analysis of the deposited data

How the results depend on the processing

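No paired analysis was possible because the series has 1 group. Leaving out each replicate in turn gave 0.83 to 1.09 for the difference between glycolytic enzymes and the pyruvate dehydrogenase and TCA group, 0.195% to 0.230% for the share of all counts held by the 37 genes, 12.7% to 14.6% for the median retained-intron share and 89.6% to 91.7% for M2. For Idh1 minus Idh2 it gave -0.16 to 0.62, the lowest value without replicate 2, so that sign rests on 1 library. In an alternative chosen after seeing the data, only protein-coding transcripts were counted; Slc2a6 minus Slc2a1 was then -0.67 and Mdh1 minus Mdh2 0.25, both with the other sign. With those of the second table, chosen likewise, Mdh1 minus Mdh2 was 0.38 and Pfkl minus Pfkm -0.07, again both with the other sign, while Slc2a6 minus Slc2a1 was 0.98. With total counts without further scaling 2 genes stood apart above in replicate 1 (Pkm and Idh3a), and such scaling moved the median of all genes by 0.093, 0.025 and -0.118 on the log2 scale. At 1.5-fold the counts were 5 above in replicate 1, 1 below in replicate 1 and 2 below in replicate 2. From the other transcript table's counts, 1 gene (Idh1) stood apart below in replicate 1 and 0 did so in replicate 2. The shares of all genes given above are for TMM scaling of the first table and do not apply to total counts or the second table. The share of counts was 0.289% of those in protein-coding genes. The median retained-intron share was 21.5% of TPM and 16.6% in the second table. The other 138 values kept their sign or stayed within the spread or the count limit, and the cause of the changes was not tested. Restricting to members that averaged 10 counts or more gave no separate value, since all 37 had it. Depth limits Ldhb, with 3 to 18 counts.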

Other observations

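Relative to the library median, the 2 sets of values were close in the total counts of these genes. They were less close in the division among transcripts, and TPM differed in level, most of all in replicate 3. In replicates 1 to 3 Pkm had 123, 92.9 and 13.1 TPM in the second table, and Hk3 had 66.8, 109 and 21.6 TPM. The TPM levels given above are therefore those of the first table. The second table held 1.41, 1.83 and 1.38 times the first table's count for the median gene in replicates 1 to 3. By the mean over libraries, none of the 37 members lay more than 2-fold from that library median, against 12.6% of 15841 genes. In replicate 2 alone Ldhb did, with 5.0 times its first-table count of 3. Its mean deviation was 0.39 ± 0.94 on the log2 scale (SD, n = 3). Suclg1 deviated most upwards, by 0.61 ± 0.12 on the log2 scale, and Gapdh most downwards, by -0.38 ± 0.10 (SD, n = 3). In 8 of the 37 genes (Hk3, Pfkfb3, Mdh2, Pfkfb4, Slc2a6, Pdk1, Idh3a and Suclg1) the mean share of a transcript type differed by 10 percentage points or more between the tables. A protein-coding transcript of Hk3 had 510, 720 and 407 counts in the first table and 2657, 557 and 2479 in the second.

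The lists of other genes of these pathways held 19, 27, 6, 12, 8 and 13 genes, with Suclg2 on more than 1 list. Of these, 17, 26, 6, 9, 7 and 2 averaged 10 counts or more. Among them 4 stood apart at least 2-fold above in replicate 1, where 4.86% of all genes did: Myc, Me1, Gclm and Rab32. Rab32, which takes part in the delivery of itaconate to pathogen-containing vacuoles, had 786, 291 and 302 counts in replicates 1 to 3, and Gclm, a glutathione synthesis gene under Nrf2, had 468, 187 and 163. Me1, cytosolic malic enzyme, had 32, 9 and 5. Pdk2 alone stood apart below in replicate 1, where 3.22% of all genes did, with 33 counts against 80 and 68.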
